A study of Rattus norvegicus with 12 samples.

Results

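The enzymes and carriers of glycolysis, pyruvate metabolism and the tricarboxylic acid (TCA) cycle were measured as mRNA in L6 myotubes exposed to 3 plant-derived or plant-related compounds. The members were 43 rat genes given as a list of symbols, and a probe was taken for a gene when its RefSeq transcript, version ignored, belonged to that symbol. All 43 genes had a probe that was tested, out of 10741 named genes tested on the array. Of the 66 probes of these genes 64 were tested, and 42 of the 43 genes were well above background on all 12 arrays. The exception was *Slc16a3*, a lactate exporter of fast muscle.

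The cells were of the rat skeletal muscle line L6, differentiated into myotubes in alpha-MEM with 2% horse serum, for 6 days per the sample labels and a day longer per the methods. RNA was hybridised to Agilent 1-colour arrays in 4 groups of 3 arrays. The control group received the solvent DMSO, and the others received 60 µM of GR24 (a synthetic strigolactone), pinosylvin or resveratrol in DMSO, each for 24 h. The 3 replicates of a group were independent experiments on the same batch of cells, so they describe 1 batch of 1 cell line. Pinosylvin and resveratrol are both stilbenes, and resveratrol carries an additional hydroxyl group. The arrays sat on 2 slides, with replicates 1 and 2 of every group on the first slide and replicate 3 of every group on the other.

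Glycolysis splits glucose into pyruvate in the cytosol and yields ATP without oxygen, which makes it a main fuel route of contracting fast muscle. Pyruvate is either reduced to lactate and exported, or carried into mitochondria, where the pyruvate dehydrogenase complex feeds it to the TCA cycle. Muscle uses its own forms of several of these enzymes, such as *Pfkm*, *Eno3* and *Pgam2*, and these replace or join the general forms as myoblasts mature.

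The share of an array's spots well above background ran from 58.0% to 64.3%, and saturated spots were absent. The number of arrays, 3 a group, limits the precision of every value. Levels are given as log2 of the processed signal relative to the 75th percentile of the same array, so a level of 0 is the signal of that percentile. A level describes the same probe across arrays. Signals of different probes name the brightest of a list, choose the probe of a gene or are summed over a list of markers. They do not give relative amounts of mRNA, and a summed linear level mostly follows the brightest probes of its list. Changes are differences of log2 group means, with n = 3 arrays a group, tested by limma's moderated statistic, with p-values adjusted by Benjamini-Hochberg over all 24279 tested probes. The threshold was an adjusted p of 0.05, and "rose" and "fell" are used only of genes past it. All tests were two-sided. The 3 comparisons with the control share the same 3 control arrays, so they are not independent of each other.

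The myotube label was checked against 12 marker genes, and every array showed all 12 well above background. Their summed linear level, in multiples of the array's 75th percentile, was 986, 1068 and 921 on the control arrays, with the embryonic myosin *Myh3* the brightest. It was 408, 395 and 389 with GR24, 1079, 1122 and 1065 with pinosylvin and 804, 806 and 776 with resveratrol. The GR24 arrays were thus the lowest of all 12, and the resveratrol arrays lay below the control and pinosylvin arrays. With GR24, 9 of the 12 markers fell and 0 rose, beside 26.7% lower and 36.1% higher among all named genes. Among those that fell was the myogenic regulator *Myog*, which had levels of 5.24, 5.25 and 5.08 in control and -0.38, -1.05 and -0.50 with GR24 (change -5.83, adjusted p = 5.53e-10). Skeletal actin *Acta1* changed by -3.88 (adjusted p = 2.4e-10), cardiac actin *Actc1* by -2.90 (adjusted p = 9.55e-10), muscle creatine kinase *Ckm* by -2.58 (adjusted p = 9.64e-08) and caveolin *Cav3* by -2.44 (adjusted p = 8.71e-09). With pinosylvin 3 markers rose (*Myog*, *Tnnt3* and *Tnnc2*) and 1 fell (*Myh8*), beside 8.59% and 9.77% of all named genes. With resveratrol 0 rose and 7 fell, beside 8.63% and 10.3%.

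Markers of undifferentiated myoblasts summed to 194, 199 and 182 in control, 107, 109 and 98.1 with GR24, 145, 148 and 137 with pinosylvin and 130, 137 and 125 with resveratrol, with the filament gene *Vim* the brightest. Of the 7 that were tested, 1 rose with GR24 (*Id2*, an inhibitor of myogenic factors) and 3 fell (*Myf5*, *Vim* and *Cdh15*), beside 36.1% and 26.7% of all named genes. With pinosylvin 0 rose and 3 fell (*Id1*, *Id2* and *Vim*), beside 8.59% and 9.77%, and with resveratrol 0 rose and 2 fell (*Vim* and *Cdh15*), beside 8.63% and 10.3%. The 4 measured markers of cycling cells, of which *Cdk1* was the brightest, all fell with each compound. Beside this, 26.7%, 9.77% and 10.3% of all named genes fell with GR24, pinosylvin and resveratrol. The medians of the cycling markers were -2.82 with GR24, -1.61 with pinosylvin and -0.81 with resveratrol. Their summed level was 61.4, 58.0 and 55.8 in control, 9.32, 9.52 and 8.42 with GR24, 20.9, 21.5 and 19.8 with pinosylvin and 33.0, 35.4 and 32.1 with resveratrol. Of 5 fibroblast and adipocyte markers on the array, *Pdgfra* and *Thy1* passed the background filter. *Thy1* had changes of -0.90 (adjusted p = 3.55e-06) with GR24, -0.63 (adjusted p = 0.000338) with pinosylvin and -0.098 (adjusted p = 0.471) with resveratrol, and *Pdgfra* of 0.23 (adjusted p = 0.0182), 0.43 (adjusted p = 0.00208) and 0.35 (adjusted p = 0.00678). The adipocyte genes *Adipoq* and *Pparg* were well above background on 0 of 12 arrays, and the adipocyte gene *Fabp4* on 1 GR24 and 1 resveratrol array. These marker values moved with the compounds, and their part in the changes of the metabolic genes was not tested. In RNA from whole cultures, fewer cells of a type and less RNA per cell cannot be told apart.

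GR24 changed the level of most of these enzymes, in both directions. Of the 43 genes 21 rose and 9 fell, and the changes ran from -1.14 for the muscle enolase *Eno3* to 1.07 for the muscle hexokinase *Hk2*. Among all named genes 36.1% were higher and 26.7% lower with GR24 than in control, so GR24 moved much of the transcriptome. The median change of the 43 genes was 0.25, against 0.078 for all named genes. With the 75th percentile taken over all spots, in which a replicated probe counts once per spot, these medians were 0.34 and 0.18, and with quantile normalization 0.35 and 0.15. By role, 5 of 9 genes of upper glycolysis rose and 2 fell, 4 of 8 of lower glycolysis rose and 2 fell, 5 of 10 of pyruvate entry into mitochondria rose and 2 fell, and 3 of 7 TCA cycle genes rose and 1 fell. Of the 4 *Pfkfb* genes, which regulate phosphofructokinase, 2 rose and 1 fell, and of the 4 genes of lactate metabolism and transport 1 rose and 1 fell. Among the 13 genes that did not pass the threshold was *Slc16a3*, for which no change is given, as most GR24 arrays were not well above background. The others had changes of -0.18 (*Mpc2*) to 0.25. With the replicate number as a block in the fit, 23 rose and 10 fell, beside 41.1% and 30.7% of all named genes.

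Pinosylvin moved few of the genes, and as many up as down. Hexokinase *Hk2*, pyruvate carboxylase *Pc*, lactate dehydrogenase *Ldhb*, enolase *Eno2* and oxoglutarate dehydrogenase *Ogdh* rose. *Pfkfb1*, *Aldoc*, *Pfkp*, *Eno3* and *Pfkfb3* fell. These 5 and 5 of 43 genes stand beside 8.59% higher and 9.77% lower among all named genes, and the median of the 43 was -1.67e-05 against 0.040 for all. By role, 1 of 9 genes of upper glycolysis rose and 2 fell, 1 of 8 of lower glycolysis rose and 1 fell, and 2 of the 4 *Pfkfb* genes fell. Of lactate metabolism, pyruvate entry and the TCA cycle 1 gene each rose and 0 fell. The 33 other genes had changes of -0.26 to 0.27. The 10 calls became 4 without the filter on dim probes and 5 to 9 with an array left out. With the replicate block 7 rose and 8 fell, beside 17.1% and 14.3% of all named genes.

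With resveratrol 5 genes rose, namely *Pc*, the monocarboxylate transporter *Slc16a1*, *Ldhb*, *Eno2* and *Ogdh*, and 3 fell, namely *Eno3*, *Aldoc* and pyruvate kinase *Pkm*. Among all named genes 8.63% were higher and 10.3% lower. By role, 0 of 9 genes of upper glycolysis rose and 1 fell, 1 of 8 of lower glycolysis rose and 2 fell, and 2 of 4 genes of lactate metabolism rose. None of the 4 *Pfkfb* genes passed the threshold. The median change of the 43 genes was -0.029, against 0.019 for all named genes, and the 35 other genes had changes of -0.44 to 0.24. The 8 calls became 14 with the deposited series table and the replicate block, and 7 to 9 with an array left out. With the replicate block alone 6 rose and 5 fell, beside 15.8% and 15.4% of all named genes.

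**Figure D1:**
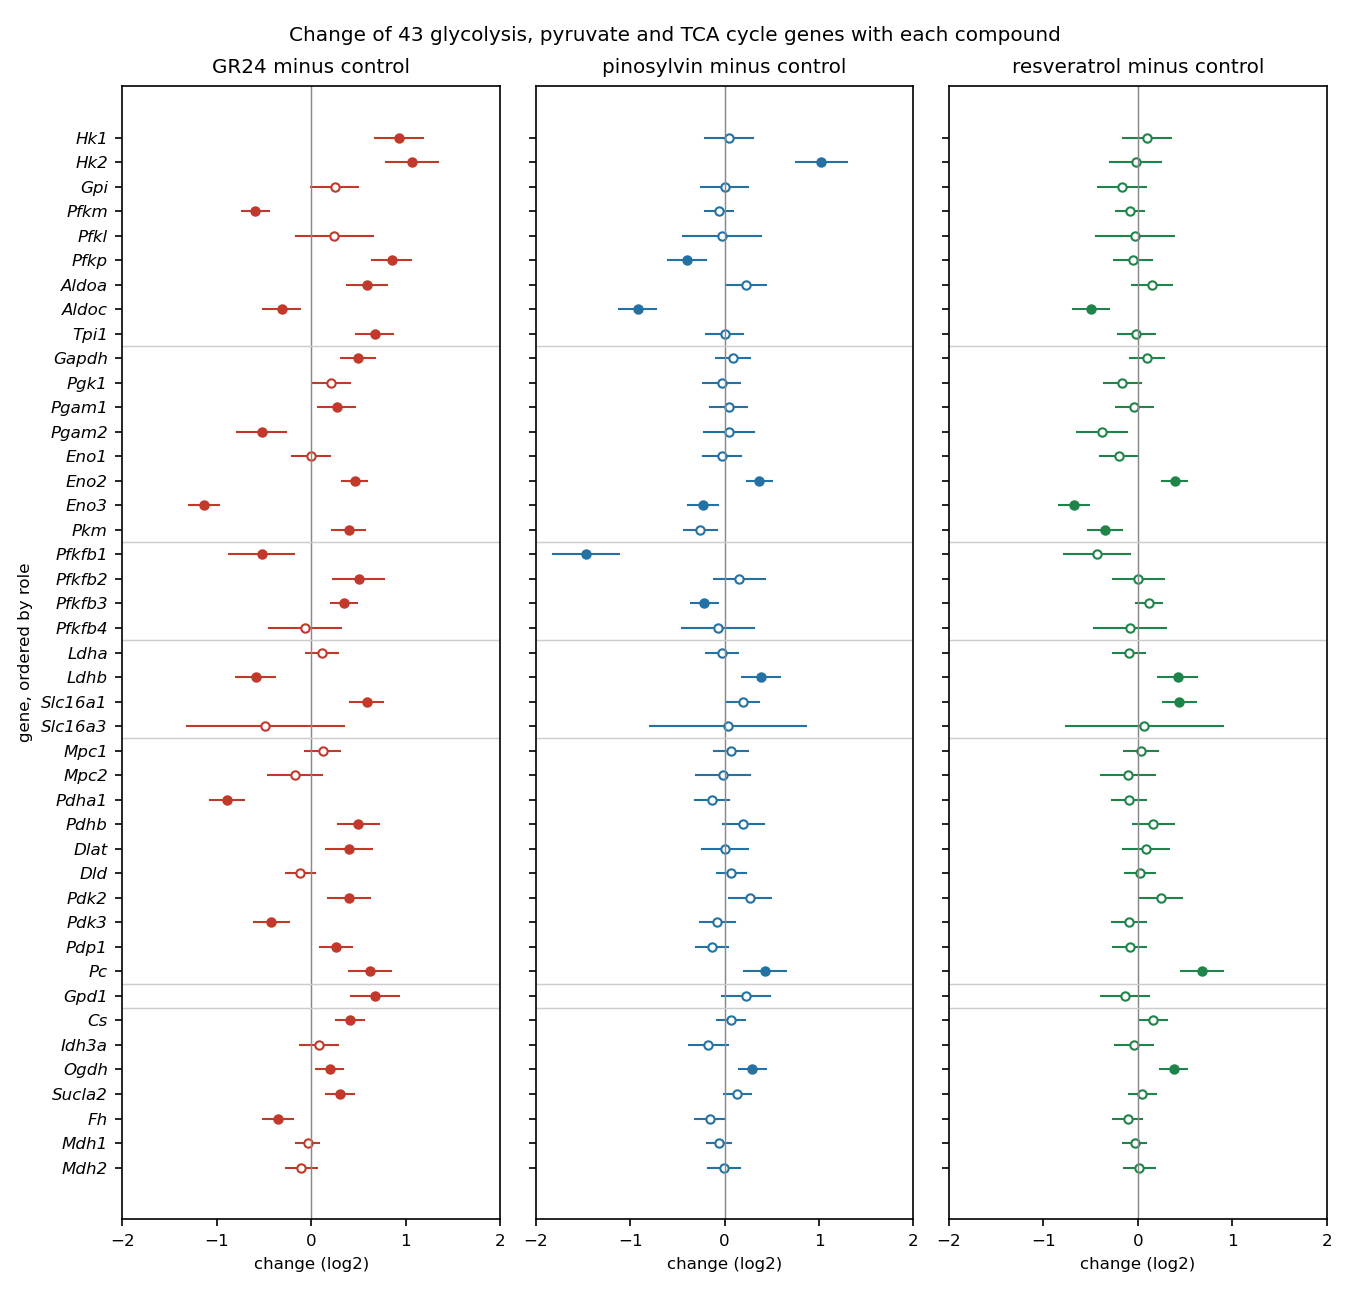
Change of each of the 43 genes (log2, compound minus control) with GR24, pinosylvin and resveratrol, 3 arrays a group. Points are differences of group means, bars are 95% intervals, filled points are past the adjusted p threshold of 0.05, and grey lines separate the roles of the enzymes. With GR24, 21 genes lie past the threshold to the higher side and 9 to the lower side, and the lowest point is *Eno3* at -1.14.

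Hexokinases trap glucose in the cell by phosphorylating it. The general form *Hk1* had levels of 0.44, 0.36 and 0.14 in control, 1.29, 1.33 and 1.11 with GR24, 0.39, 0.48 and 0.23 with pinosylvin and 0.55, 0.48 and 0.22 with resveratrol. The GR24 arrays were the highest 3 of the 12, and the other groups overlapped. *Hk1* rose by 0.93 (95% interval 0.67 to 1.18, adjusted p = 5.16e-05) with GR24, which is 1.90-fold. The form responsive to insulin in muscle, *Hk2*, had levels of -2.54, -2.48 and -2.20 in control, -1.43, -1.30 and -1.29 with GR24, -1.37, -1.35 and -1.42 with pinosylvin and -2.28, -2.70 and -2.30 with resveratrol. All GR24 and pinosylvin arrays lay above all control and resveratrol arrays. *Hk2* rose 2.09-fold with GR24 (1.07, 95% interval 0.80 to 1.34, adjusted p = 2.92e-05) and 2.04-fold with pinosylvin (1.03, 95% interval 0.75 to 1.30, adjusted p = 0.000278). With resveratrol its change was -0.024 (95% interval -0.30 to 0.25, adjusted p = 0.942), and pinosylvin minus resveratrol was 1.05 (95% interval 0.78 to 1.32, adjusted p = 0.000361). *Gpi*, which turns glucose 6-phosphate into fructose 6-phosphate, had a change of 0.25 (adjusted p = 0.0913) with GR24, and of 0.25 (adjusted p = 0.0911) in GR24 minus pinosylvin. With the replicate block both passed the threshold (adjusted p = 0.0045 and 0.00454).

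Phosphofructokinase catalyses the committed step of glycolysis, and its muscle and platelet-type forms moved apart with GR24. The muscle form *Pfkm* had levels of 3.72, 3.76 and 3.60 in control, 3.17, 3.04 and 3.10 with GR24, 3.63, 3.65 and 3.63 with pinosylvin and 3.69, 3.57 and 3.58 with resveratrol. Every GR24 array lay below the other 9. *Pfkm* fell with GR24, by a change of -0.59 (95% interval -0.74 to -0.44, adjusted p = 2.41e-05), which is 1.51-fold lower. The platelet-type form *Pfkp* had levels of 3.68, 3.50 and 3.46 in control, 4.46, 4.46 and 4.27 with GR24, 3.28, 3.13 and 3.03 with pinosylvin and 3.57, 3.46 and 3.45 with resveratrol. Here the GR24 arrays were the highest 3 and the pinosylvin arrays the lowest 3 of the 12. *Pfkp* rose by 0.85 (95% interval 0.65 to 1.05, adjusted p = 1.84e-05) with GR24 (1.80-fold), fell with pinosylvin (change -0.40, adjusted p = 0.0143), and had a change of -0.054 (adjusted p = 0.786) with resveratrol. The pinosylvin call missed the threshold without control array 1, pinosylvin array 2 or pinosylvin array 3 (changes of -0.39 to -0.33, adjusted p of 0.0502 to 0.0577), without the filter on dim probes (adjusted p = 0.0562) and with a fit to the arrays compared alone (adjusted p = 0.064). The liver-type form *Pfkl* had levels of -0.73, -0.93 and -0.44 in control, -0.66, -0.48 and -0.22 with GR24, -0.79, -0.93 and -0.45 with pinosylvin and -0.90, -0.86 and -0.42 with resveratrol. These groups overlapped, and replicate 3 was the highest array of each group. Its change with GR24 was 0.25 (95% interval -0.17 to 0.66, adjusted p = 0.293), with an adjusted p of 0.0169 under the replicate block. GR24 minus pinosylvin and GR24 minus resveratrol were 0.27 (adjusted p = 0.242) and 0.27 (adjusted p = 0.251), with adjusted p = 0.0104 and 0.0111 under the block.

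Aldolase cleaves fructose bisphosphate into the triose phosphates, and *Aldoa* is its main form in muscle. *Aldoa* had levels of 5.64, 5.74 and 5.42 in control, 6.23, 6.20 and 6.13 with GR24, 5.84, 5.91 and 5.72 with pinosylvin and 5.87, 5.76 and 5.62 with resveratrol. GR24 again gave the highest 3 arrays, while the pinosylvin and resveratrol arrays overlapped each other. It rose by 0.59 (95% interval 0.37 to 0.80, adjusted p = 0.000384) with GR24. With pinosylvin its change was 0.22 (adjusted p = 0.15), past the threshold under the replicate block (adjusted p = 0.025). The brain-type aldolase *Aldoc* gave a dim signal, with levels of -3.19, -3.24 and -3.34 in control, -3.63, -3.61 and -3.47 with GR24, -4.13, -4.21 and -4.19 with pinosylvin and -3.80, -3.58 and -3.89 with resveratrol. The 3 control arrays were the highest and the 3 pinosylvin arrays the lowest of all 12. *Aldoc* fell with each compound, with changes of -0.31 (adjusted p = 0.0102) for GR24, -0.92 (adjusted p = 5.43e-05) for pinosylvin and -0.50 (adjusted p = 0.00314) for resveratrol. The GR24 call missed the threshold in 8 of 16 alternative settings (adjusted p of 0.0583 to 0.745), the quantile normalizations and the deposited series table among them. The resveratrol call missed it in 4 of 16 (0.0575 to 0.11), and the pinosylvin call in none of them. Over all alternatives the changes of *Aldoc* ran from -0.41 to -0.046 with GR24, -0.96 to -0.36 with pinosylvin and -0.59 to -0.18 with resveratrol, and normexp background correction gave the smallest pinosylvin change.

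Triose phosphate isomerase, *Tpi1*, interconverts the triose phosphates. Its levels were 3.56, 3.56 and 3.37 in control, 4.22, 4.27 and 4.01 with GR24, 3.57, 3.50 and 3.41 with pinosylvin and 3.52, 3.51 and 3.40 with resveratrol. Only the GR24 arrays stood apart, above the other 9. *Tpi1* rose by 0.67 (95% interval 0.48 to 0.87, adjusted p = 7.69e-05) with GR24. *Gpd1* draws a triose phosphate off to glycerol phosphate, the backbone of triglycerides, and gave a dim signal with levels of -4.52, -4.48 and -4.68 in control, -3.82, -3.85 and -3.98 with GR24, -4.27, -4.45 and -4.26 with pinosylvin and -4.94, -4.49 and -4.66 with resveratrol. Again the GR24 arrays were the highest 3. *Gpd1* rose by 0.67 (95% interval 0.42 to 0.93, adjusted p = 0.000479) with GR24, but after normexp background correction the change was 0.19 (adjusted p = 0.101).

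In lower glycolysis, *Gapdh* oxidises the triose phosphate and makes NADH. *Gapdh* had levels of 6.91, 7.14 and 6.98 in control, 7.49, 7.60 and 7.43 with GR24, 7.12, 7.14 and 7.02 with pinosylvin and 7.06, 7.21 and 7.06 with resveratrol. All 3 GR24 arrays exceeded the others, whose groups overlapped each other. It rose by 0.50 (95% interval 0.32 to 0.68, adjusted p = 0.000374) with GR24, and all 8 of its probes rose, by 0.48 to 0.61. *Pgk1*, the first step that makes ATP, had a change of 0.21 (adjusted p = 0.0625) with GR24, -0.030 (adjusted p = 0.882) with pinosylvin and -0.16 (adjusted p = 0.262) with resveratrol.

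Phosphoglycerate mutase has a general form, *Pgam1*, and a muscle form, *Pgam2*. *Pgam1* had levels of 5.78, 5.75 and 5.59 in control, 5.98, 6.04 and 5.91 with GR24, 5.84, 5.81 and 5.60 with pinosylvin and 5.71, 5.74 and 5.57 with resveratrol. GR24 held the highest 3 arrays, by a margin smaller than the spread within the other groups. *Pgam1* rose by 0.27 (95% interval 0.073 to 0.46, adjusted p = 0.023) with GR24, but the adjusted p was 0.0588 to 0.0835, with changes of 0.21 to 0.26, when GR24 array 1, GR24 array 2 or control array 3 was left out, and 0.0715 without the filter on dim probes. *Pgam2* had levels of 0.56, 0.65 and 0.43 in control, 0.074, 0.083 and -0.10 with GR24, 0.72, 0.66 and 0.39 with pinosylvin and 0.15, 0.36 and -0.012 with resveratrol. The GR24 and resveratrol arrays lay below all control and pinosylvin arrays. *Pgam2* fell with GR24 (change -0.53, 95% interval -0.79 to -0.26, adjusted p = 0.00301). With resveratrol the change was -0.38 (95% interval -0.64 to -0.12, adjusted p = 0.052), and it passed the threshold in 12 of 16 alternative settings, with adjusted p = 0.00256 under the replicate block, and with adjusted p = 0.0317 and 0.0351 (changes of -0.48 and -0.38) without resveratrol array 2 or pinosylvin array 3.

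Enolase makes phosphoenolpyruvate, and with GR24 its muscle form fell while its neuronal form rose. The muscle form *Eno3* had levels of 6.47, 6.41 and 6.28 in control, 5.32, 5.23 and 5.20 with GR24, 6.20, 6.21 and 6.07 with pinosylvin and 5.74, 5.73 and 5.66 with resveratrol. The groups did not overlap, with control highest, then pinosylvin, then resveratrol, and GR24 lowest. *Eno3* fell with GR24, by a change of -1.14 (95% interval -1.30 to -0.98, adjusted p = 3.03e-07), which is 2.20-fold lower. It fell with resveratrol by a change of -0.68 (95% interval -0.83 to -0.52, adjusted p = 0.000141), and with pinosylvin by one of -0.23 (95% interval -0.39 to -0.074, adjusted p = 0.0497). The pinosylvin call sat at the threshold: leaving out any array other than control array 3 ended it, with adjusted p of 0.0558 to 0.162 and changes of -0.25 to -0.19, as did dropping the dim-probe filter (0.179), fitting the arrays compared alone (0.159) or keeping only the first slide (0.0533). The replicate block gave adjusted p = 0.00647.

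The general form *Eno1* had levels of 6.89, 7.06 and 6.77 in control, 6.93, 6.96 and 6.82 with GR24, 6.88, 6.97 and 6.79 with pinosylvin and 6.74, 6.79 and 6.59 with resveratrol. The control, GR24 and pinosylvin arrays overlapped. Its change was -0.0038 (95% interval -0.21 to 0.20, adjusted p = 0.978) with GR24 and -0.20 (adjusted p = 0.176) with resveratrol, where the replicate block gave adjusted p = 0.0154 and a further *Eno1* probe gave -0.23 (adjusted p = 0.0244). Pinosylvin minus resveratrol was 0.18 (adjusted p = 0.244) and GR24 minus resveratrol 0.20 (adjusted p = 0.0986), with adjusted p = 0.0284 and 0.00654 under the block. The neuronal form *Eno2* had levels of 1.22, 1.28 and 1.19 in control, 1.76, 1.65 and 1.67 with GR24, 1.57, 1.63 and 1.59 with pinosylvin and 1.64, 1.67 and 1.56 with resveratrol. Every treated array lay above every control array. *Eno2* rose by 0.46 (95% interval 0.33 to 0.60, adjusted p = 7.07e-05) with GR24, 0.37 (adjusted p = 0.00205) with pinosylvin and 0.39 (adjusted p = 0.00136) with resveratrol. Another probe of *Eno2* gave 0.57 (adjusted p = 0.0012), 0.37 (0.0447) and 0.16 (0.41) in the same order.

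Pyruvate kinase, *Pkm*, makes pyruvate and ATP in the last step of glycolysis. It had levels of 4.50, 4.69 and 4.45 in control, 4.95, 5.01 and 4.87 with GR24, 4.26, 4.37 and 4.24 with pinosylvin and 4.17, 4.29 and 4.15 with resveratrol. The GR24 arrays were the highest 3, the control arrays came next, and the pinosylvin and resveratrol arrays overlapped at the bottom. *Pkm* rose by 0.39 (95% interval 0.22 to 0.57, adjusted p = 0.00149) with GR24 and fell with resveratrol (change -0.35, 95% interval -0.52 to -0.17, adjusted p = 0.0133). The resveratrol call missed the threshold without resveratrol array 3 (-0.32, adjusted p = 0.0516), without the dim-probe filter (0.0544) and with the arrays compared alone (0.0637). All 4 *Pkm* probes were lower with resveratrol, by changes of -0.44 to -0.33, and 2 of them passed the threshold. With pinosylvin the change was -0.26 (adjusted p = 0.0523), with adjusted p = 0.00388 under the replicate block.

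**Figure D2:**
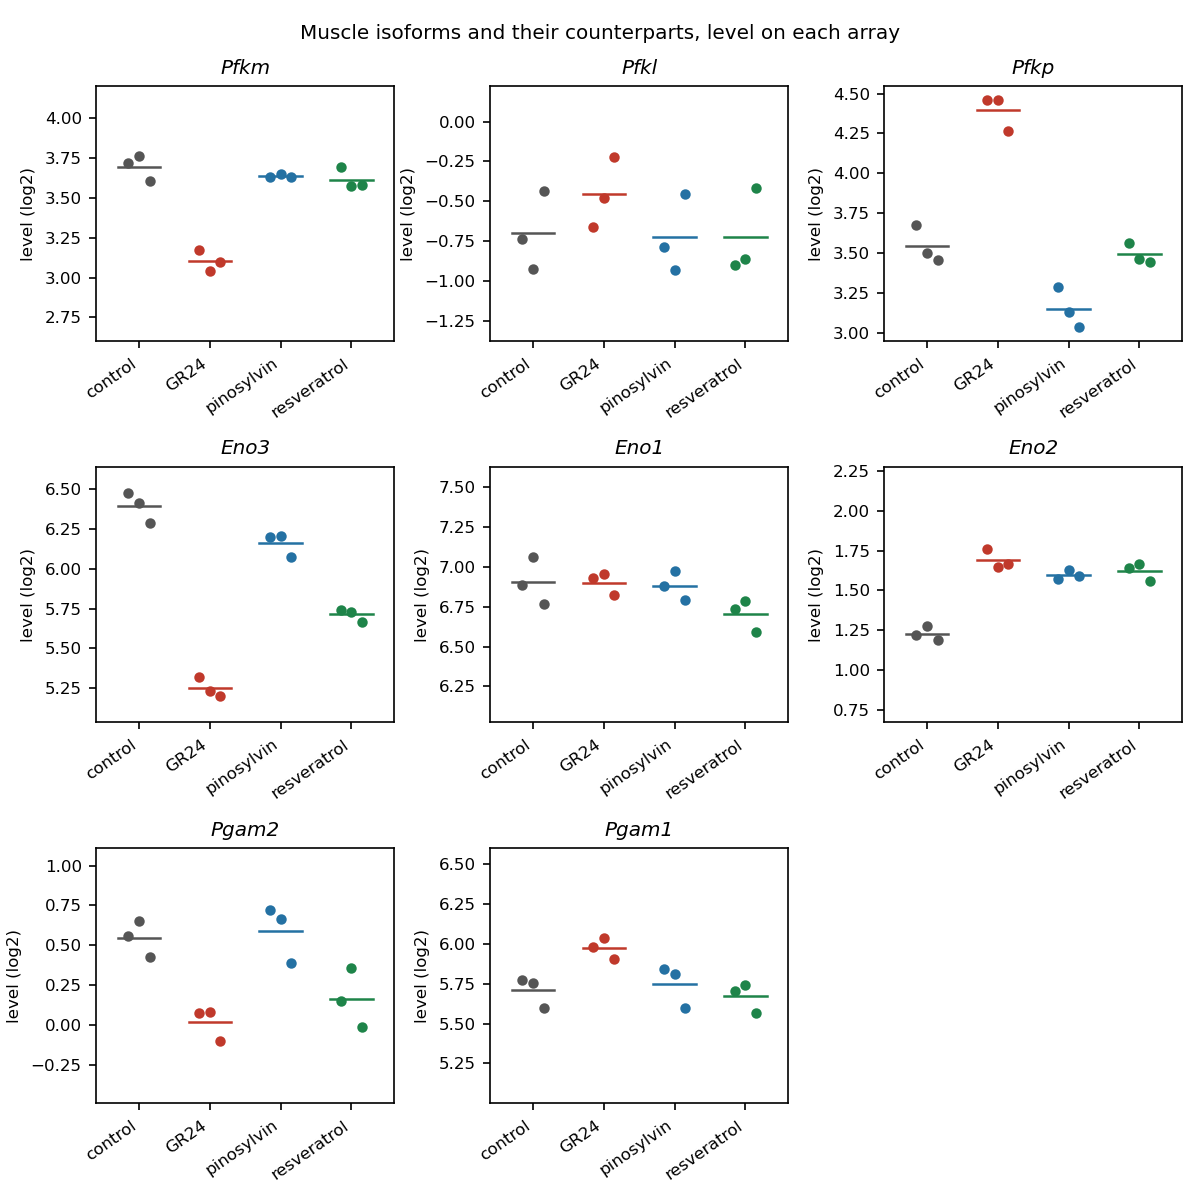
Level (log2 relative to the array's 75th percentile) of the muscle forms *Pfkm*, *Eno3* and *Pgam2* and of the other forms of the same enzymes on each of the 12 arrays. Dots are arrays and lines are group means of 3 arrays. For *Pfkm*, *Eno3* and *Pgam2* all 3 GR24 dots lie below all control dots (changes of -0.59, -1.14 and -0.53), while *Pfkp* and *Pgam1* lie above them.

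Within each array the muscle form was also set against the general form of the same enzyme, which removes any shift shared by an array's probes. For *Eno3* minus *Eno1* this difference was -0.51 ± 0.12 (SD, n = 3) in control, -1.65 ± 0.065 with GR24, -0.72 ± 0.043 with pinosylvin and -0.99 ± 0.065 with resveratrol. The 3 compounds each lay wholly below control, by changes of -1.14, -0.21 and -0.48. For *Pfkm* minus the mean of *Pfkl* and *Pfkp* it was 2.27 ± 0.19 in control and 1.13 ± 0.12 with GR24, without overlap, a change of -1.14. With pinosylvin and resveratrol the change of this difference was 0.15 (exact permutation p = 0.3) and -0.039 (exact permutation p = 0.8), and both groups overlapped with control. For *Pgam2* minus *Pgam1* the changes were -0.79 with GR24 and -0.34 with resveratrol, both without overlap, and 0.0028 with pinosylvin (exact permutation p = 0.9). The 6 changes without overlap each had an exact permutation p of 0.10, the smallest that 3 arrays against 3 allow, and 0.15 after Benjamini-Hochberg adjustment over the 9 tests, so this test cannot pass 0.05 here. It did not use the replicate numbers. Between arrays of the same number, *Pfkm* minus the general forms was higher with pinosylvin than in control each time (2.38 and 2.24, 2.55 and 2.47, 2.34 and 2.09). These differences show unequal change of the forms and not their relative amounts. Of the 12 myotube markers 9 fell with GR24, 1 with pinosylvin and 7 with resveratrol, beside 26.7%, 9.77% and 10.3% of all named genes. The part of these markers in the changes of the muscle forms was not tested.

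The 4 *Pfkfb* enzymes make and break down the sugar bisphosphate that activates phosphofructokinase. *Pfkfb1*, the form of liver and muscle, had levels of -1.78, -1.86 and -2.03 in control, -2.22, -2.39 and -2.63 with GR24, -3.36, -3.60 and -3.11 with pinosylvin and -2.15, -2.24 and -2.59 with resveratrol. Control arrays were the highest 3 and pinosylvin arrays the lowest 3, with the GR24 and resveratrol arrays overlapping in between. *Pfkfb1* fell 2.77-fold with pinosylvin (change -1.47, 95% interval -1.82 to -1.12, adjusted p = 0.000129) and fell with GR24 (change -0.53, 95% interval -0.88 to -0.18, adjusted p = 0.0145). The pinosylvin change was past the threshold in every alternative that gave a test, but its size ran from -1.66 on the first slide alone to -0.86 after normexp background correction. Without control array 1 or GR24 array 3 the GR24 change was -0.47 to -0.42, with adjusted p of 0.0513 to 0.0556. With resveratrol it was -0.44 (adjusted p = 0.0879). *Pfkfb3*, the form with the strongest kinase activity, had levels of 0.040, -0.14 and -0.056 in control, 0.30, 0.27 and 0.33 with GR24, -0.24, -0.25 and -0.30 with pinosylvin and 0.086, 0.11 and 0.015 with resveratrol. The GR24 arrays were the highest 3 and the pinosylvin arrays the lowest 3. *Pfkfb3* rose by 0.35 (95% interval 0.21 to 0.49, adjusted p = 0.000717) with GR24 and fell with pinosylvin (change -0.21, 95% interval -0.35 to -0.073, adjusted p = 0.0431).

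That pinosylvin call for *Pfkfb3* was lost when any array other than control array 2 was left out (changes of -0.22 to -0.17, adjusted p of 0.0503 to 0.15) and in 6 of 16 other settings (adjusted p of 0.0569 to 0.415). Averaged over both of its probes, *Pfkfb3* had a change of 0.075 (adjusted p = 0.626) with GR24. *Pfkfb2*, the heart form, had levels of 0.085, 0.19 and -0.16 in control, 0.65, 0.45 and 0.54 with GR24, -0.0046, 0.26 and 0.33 with pinosylvin and 0.16, -0.12 and 0.097 with resveratrol. The GR24 arrays were the highest 3, and the other groups overlapped. *Pfkfb2* rose by 0.50 (95% interval 0.24 to 0.77, adjusted p = 0.00452) with GR24 on this probe, but a dim probe of another RefSeq transcript fell (-0.31, adjusted p = 0.0105), and that dim probe rose with pinosylvin (0.34, adjusted p = 0.0216) and resveratrol (0.43, adjusted p = 0.00643). A further dim probe of the same transcript as that dim probe had a change of 1.01 (adjusted p = 0.164) with GR24. The direction for this gene thus depended on the probe, and the mean over its tested probes had a change of 0.40 (adjusted p = 0.106) with GR24. *Pfkfb4* had changes of -0.069, -0.075 and -0.087 with GR24, pinosylvin and resveratrol, none of them past the threshold.

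Lactate dehydrogenase interconverts pyruvate and lactate, and *Ldhb* encodes the subunit typical of heart and oxidative muscle. *Ldhb* had levels of 1.76, 1.76 and 1.60 in control, 1.16, 1.18 and 1.02 with GR24, 2.20, 2.11 and 1.97 with pinosylvin and 2.18, 2.23 and 1.99 with resveratrol. GR24 gave the lowest 3 arrays, and all pinosylvin and resveratrol arrays lay above all control arrays. *Ldhb* fell with GR24 (change -0.59, 95% interval -0.79 to -0.39, adjusted p = 0.00027) and rose by 0.38 (95% interval 0.18 to 0.59, adjusted p = 0.0167) with pinosylvin and 0.42 (95% interval 0.22 to 0.62, adjusted p = 0.0103) with resveratrol. The pinosylvin call missed the threshold without pinosylvin array 1, pinosylvin array 2 or control array 3 (changes of 0.33 to 0.38, adjusted p of 0.0562 to 0.0675), without the dim-probe filter (0.0638) and with the arrays compared alone (0.0555). The subunit typical of fast muscle, *Ldha*, had changes of 0.11 (adjusted p = 0.24) with GR24, -0.031 (adjusted p = 0.852) with pinosylvin and -0.094 (adjusted p = 0.482) with resveratrol on its brightest probe. Its other probes rose with GR24, by 0.27 (adjusted p = 0.00219) and 0.25 (adjusted p = 0.0126).

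*Slc16a1* carries lactate and pyruvate across the cell membrane. Its levels were -0.26, -0.20 and -0.16 in control, 0.38, 0.47 and 0.28 with GR24, 0.042, -0.12 and 0.031 with pinosylvin and 0.17, 0.34 and 0.19 with resveratrol. All GR24 and resveratrol arrays lay above all control arrays, and the pinosylvin arrays lay in between without overlapping either of the other treated groups. *Slc16a1* rose by 0.59 (95% interval 0.41 to 0.76, adjusted p = 8.63e-05) with GR24 and 0.44 (95% interval 0.27 to 0.61, adjusted p = 0.00331) with resveratrol. With pinosylvin its change was 0.19 (95% interval 0.019 to 0.37, adjusted p = 0.129). The exporter *Slc16a3* was well above background on 2 control arrays, 1 GR24 array, 3 pinosylvin and 3 resveratrol arrays. It entered the test through the stilbene arrays alone and passed the threshold in no comparison. The replicate block put GR24 minus each stilbene past the threshold, which is not taken as a change, since most GR24 arrays were not well above background.

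Pyruvate enters mitochondria through a carrier made of *Mpc1* and *Mpc2*, and the pyruvate dehydrogenase complex then turns it into acetyl-CoA. With GR24 the change of *Mpc1* was 0.12 (adjusted p = 0.243) and that of *Mpc2* -0.18 (adjusted p = 0.273). For *Mpc2* the replicate block gave adjusted p = 0.00731, and 0.0113 for GR24 minus pinosylvin (-0.16, adjusted p = 0.315 without the block). The alpha subunit of the first enzyme of the complex, *Pdha1*, had levels of 4.79, 4.82 and 4.91 in control, 3.96, 3.94 and 3.95 with GR24, 4.59, 4.63 and 4.89 with pinosylvin and 4.75, 4.69 and 4.79 with resveratrol. All 3 GR24 arrays lay lowest, far below the range of the other 9. *Pdha1* fell 1.86-fold with GR24 (change -0.89, 95% interval -1.07 to -0.71, adjusted p = 5.37e-06). The other probes of *Pdha1* fell by smaller changes with GR24, -0.52 (adjusted p = 0.00192) and -0.64 (adjusted p = 2.94e-05). The latter probe passed the threshold with pinosylvin too (-0.29, adjusted p = 0.0208). The beta subunit of the same enzyme, *Pdhb*, rose by 0.50 (adjusted p = 0.00125) with GR24, and the acetyltransferase *Dlat* by 0.40 (adjusted p = 0.00958). So the subunits of 1 complex moved in opposite directions. The shared dehydrogenase subunit *Dld* had a change of -0.12 (adjusted p = 0.191) with GR24, and of -0.14 (adjusted p = 0.126) for GR24 minus resveratrol, with adjusted p = 0.0458 under the block.

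Kinases switch the complex off and phosphatases switch it on again. The kinase *Pdk3* had levels of 0.92, 0.89 and 0.74 in control, 0.46, 0.49 and 0.33 with GR24, 0.76, 0.88 and 0.67 with pinosylvin and 0.78, 0.81 and 0.67 with resveratrol. Its 3 lowest arrays were those of GR24. *Pdk3* fell with GR24 (change -0.42, 95% interval -0.60 to -0.24, adjusted p = 0.00119), while the kinase *Pdk2* rose by 0.40 (adjusted p = 0.0061). With pinosylvin and resveratrol the changes of *Pdk2* were 0.27 (adjusted p = 0.103) and 0.24 (adjusted p = 0.136), with adjusted p = 0.0245 and 0.0353 under the block. The phosphatase *Pdp1* rose by 0.26 (adjusted p = 0.0136) with GR24, which became 0.21 (adjusted p = 0.0578) without GR24 array 2, and adjusted p = 0.0509 with the arrays compared alone. Pyruvate carboxylase, *Pc*, turns pyruvate into oxaloacetate and refills the TCA cycle. Its levels were 1.64, 1.60 and 1.46 in control, 2.25, 2.29 and 2.04 with GR24, 2.06, 2.05 and 1.87 with pinosylvin and 2.29, 2.36 and 2.08 with resveratrol. Every treated array lay above every control array. *Pc* rose by 0.68 (95% interval 0.46 to 0.90, adjusted p = 0.00116) with resveratrol, 0.62 (95% interval 0.40 to 0.85, adjusted p = 0.000342) with GR24 and 0.43 (95% interval 0.21 to 0.65, adjusted p = 0.0152) with pinosylvin. The pinosylvin call missed the threshold without pinosylvin array 1, pinosylvin array 2 or control array 3 (changes of 0.37 to 0.40, adjusted p of 0.0551 to 0.0591) and without the dim-probe filter (0.0562).

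In the TCA cycle, citrate synthase *Cs*, which admits acetyl-CoA, rose by 0.41 (adjusted p = 0.000359) with GR24, and the succinyl-CoA synthetase subunit *Sucla2* rose by 0.30 (adjusted p = 0.00232). Oxoglutarate dehydrogenase, *Ogdh*, had levels of 2.20, 2.23 and 2.23 in control, 2.39, 2.35 and 2.51 with GR24, 2.43, 2.55 and 2.56 with pinosylvin and 2.62, 2.55 and 2.62 with resveratrol. All treated arrays lay above all control arrays, and the resveratrol arrays were the highest on average. *Ogdh* rose by 0.38 (95% interval 0.23 to 0.52, adjusted p = 0.00272) with resveratrol, 0.29 (95% interval 0.15 to 0.44, adjusted p = 0.0108) with pinosylvin and 0.20 (95% interval 0.052 to 0.34, adjusted p = 0.0239) with GR24. The GR24 call missed the threshold without control array 1 or GR24 array 3 (changes of 0.15 to 0.19, adjusted p of 0.0663 to 0.0811), on the first slide alone (0.1), with the arrays compared alone (0.0749) and without the dim-probe filter (0.0927). The pinosylvin call missed it in the latter pair of settings (0.0572 and 0.059). Fumarase, *Fh*, which hydrates fumarate to malate, had levels of 4.50, 4.57 and 4.49 in control, 4.18, 4.24 and 4.08 with GR24, 4.43, 4.39 and 4.28 with pinosylvin and 4.43, 4.47 and 4.34 with resveratrol. GR24 arrays were the lowest 3. *Fh* fell with GR24 (change -0.35, 95% interval -0.51 to -0.20, adjusted p = 0.00131), and its change with pinosylvin was -0.16 (adjusted p = 0.169), or adjusted p = 0.0372 under the block. The isocitrate dehydrogenase subunit *Idh3a* had changes of 0.084 (adjusted p = 0.471) with GR24 and -0.17 (adjusted p = 0.248) with pinosylvin, the latter with adjusted p = 0.0461 under the block. Malate dehydrogenases *Mdh1* (cytosolic) and *Mdh2* (mitochondrial) had changes of -0.036 (adjusted p = 0.624) and -0.11 (adjusted p = 0.258) with GR24.

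The stilbenes were compared directly at the same dose and time, 60 µM and 24 h. Pinosylvin and resveratrol differed past the threshold for 7 of the 43 genes, 3 higher and 4 lower with pinosylvin, beside 8.13% and 8.26% of all named genes. *Hk2* showed the largest difference to the higher side and *Pfkfb1* to the lower side. The median difference of the 43 genes was 0.012 against 0.0029 for all named genes, and the 36 other genes had differences of -0.25 to 0.37. The 7 calls became 11 with the slide as a block and 5 to 7 with an array left out. With the replicate block 4 were higher and 6 lower, beside 14.3% and 14% of all named genes.

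*Hk2* was higher with pinosylvin than with resveratrol by 1.05 (95% interval 0.78 to 1.32, adjusted p = 0.000361), and *Eno3* by 0.45 (95% interval 0.29 to 0.60, adjusted p = 0.00231). For *Pgam2* the difference was 0.43 (95% interval 0.16 to 0.69, adjusted p = 0.0373), and it missed the threshold without control, GR24, pinosylvin or resveratrol array 1, pinosylvin array 2 or resveratrol array 3 (differences of 0.34 to 0.43, adjusted p of 0.0545 to 0.127), without the dim-probe filter (0.108) and with the arrays compared alone (0.0985). So the muscle forms *Eno3* and *Pgam2* both had higher levels with pinosylvin than with resveratrol, and *Pfkm* had a difference of 0.022 (95% interval -0.12 to 0.17, adjusted p = 0.887). Of the 12 myotube markers 9 were also higher with pinosylvin than with resveratrol and 0 lower, beside 8.13% and 8.26% of all named genes. The part of these markers in the differences was not tested. *Pfkfb1* was lower with pinosylvin (difference -1.03, 95% interval -1.38 to -0.68, adjusted p = 0.00181), by -1.28 on the first slide, -0.53 on the second and -0.56 after normexp background correction. *Pfkfb3* was also lower (-0.33, 95% interval -0.47 to -0.20, adjusted p = 0.00567). For *Pfkfb3* the mean over both probes gave -0.090 (adjusted p = 0.696).

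*Aldoc* was lower with pinosylvin by a difference of -0.42 (95% interval -0.62 to -0.23, adjusted p = 0.0094), which missed the threshold in 6 of 16 alternative settings (adjusted p of 0.053 to 0.552) and ran from -0.53 to -0.082 over all of them. *Pfkp* was lower by a difference of -0.34 (95% interval -0.54 to -0.14, adjusted p = 0.0325). That call for *Pfkp* was lost without resveratrol array 1, 2 or 3 or pinosylvin array 2 or 3 (differences of -0.36 to -0.28, adjusted p of 0.0667 to 0.102), without the dim-probe filter (0.107), with the arrays compared alone (0.0636) and on the first slide alone (0.0818). For genes that rose with both stilbenes the direct difference was -0.025 for *Eno2* (95% interval -0.16 to 0.11), -0.037 for *Ldhb* (95% interval -0.24 to 0.17) and -0.083 for *Ogdh* (95% interval -0.23 to 0.060). For *Pc* the difference was -0.25 (95% interval -0.47 to -0.027, adjusted p = 0.132) and for *Slc16a1* -0.25 (95% interval -0.42 to -0.076, adjusted p = 0.0595), and the replicate block gave adjusted p = 0.00545 and 0.0451. A missed threshold does not show that the stilbenes act alike on these genes.

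**Figure D3:**
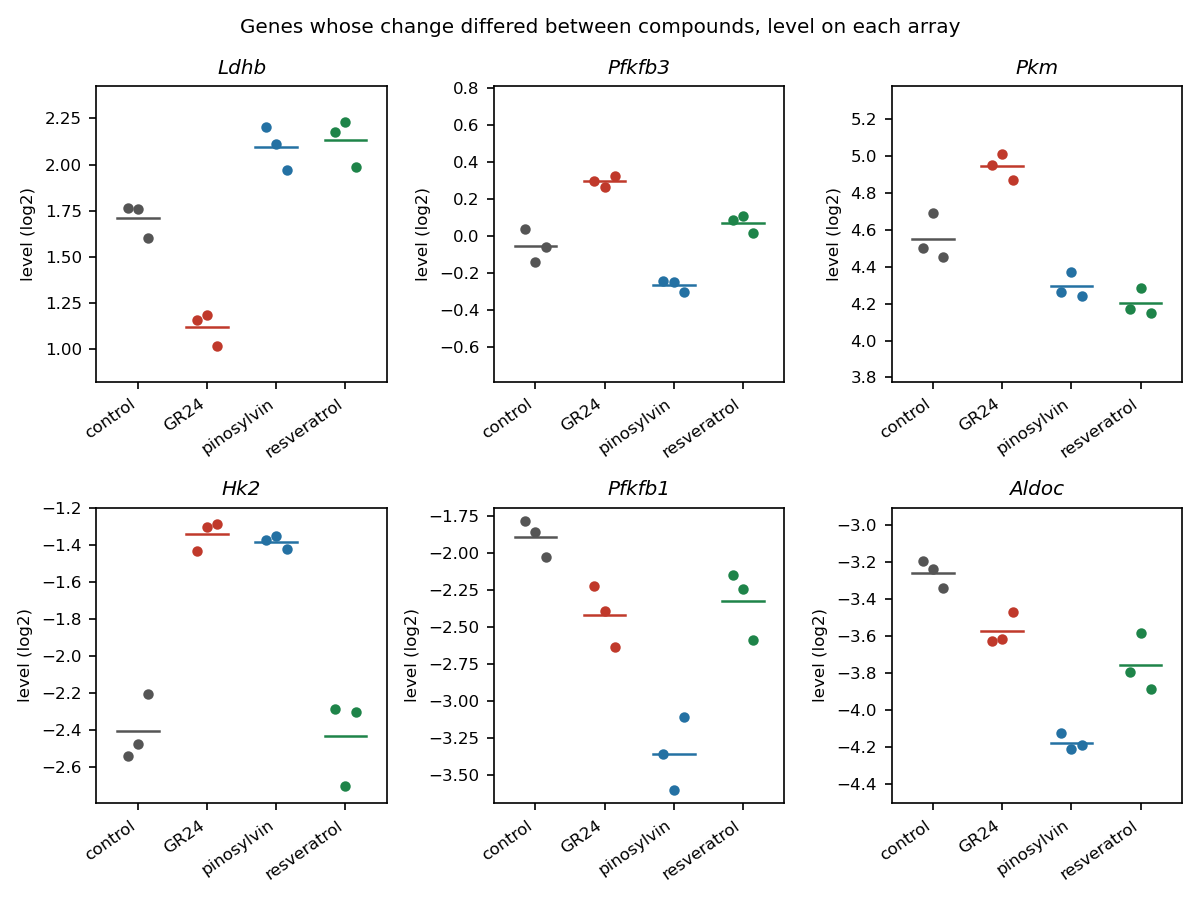
Level (log2 relative to the array's 75th percentile) of *Ldhb*, *Pfkfb3*, *Pkm*, *Hk2*, *Pfkfb1* and *Aldoc* on each of the 12 arrays, by group. Dots are arrays and lines are means of 3 arrays. *Ldhb* lies below control with GR24 (-0.59) and above it with pinosylvin (0.38) and resveratrol (0.42), and *Hk2* lies 1.07 above control with GR24 and 1.03 above it with pinosylvin.

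GR24 was also set directly against each stilbene at the same dose and time. Against pinosylvin 20 of the 43 genes were higher with GR24 and 8 lower, beside 34.7% and 27.1% of all named genes. Against resveratrol 19 were higher and 7 lower, beside 31.6% and 25.1%. With the percentile taken over all spots, the shares of all named genes in GR24 minus resveratrol became 41.6% and 21%, and their median moved from 0.053 to 0.16, and that of the 43 genes from 0.19 to 0.30. In GR24 minus pinosylvin these medians became 0.14 and 0.28. The medians of the 43 genes were 0.19 in both comparisons, and 0.053 and 0.053 for all named genes. Against pinosylvin 15 genes did not pass the threshold, and against resveratrol 17 did not. *Slc16a3* was among them in both, and no difference is given for it, as most GR24 arrays were not well above background. The others had differences of -0.16 (*Mpc2*) to 0.27 against pinosylvin and -0.15 (*Pgam2*) to 0.27 against resveratrol.

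*Pfkp* showed the largest difference from pinosylvin, 1.25 (95% interval 1.04 to 1.45, adjusted p = 1.24e-06), and *Hk2* the largest from resveratrol, 1.09 (95% interval 0.82 to 1.36, adjusted p = 3.33e-05). For *Hk2*, GR24 minus pinosylvin was 0.042 (95% interval -0.23 to 0.31, adjusted p = 0.799). *Ldhb* was lower with GR24 than with pinosylvin (-0.97, adjusted p = 7.67e-06) and resveratrol (-1.01, adjusted p = 7.37e-06). *Eno3* was lower with GR24 than with resveratrol (-0.46, 95% interval -0.62 to -0.30, adjusted p = 0.000298) and pinosylvin (-0.91, 95% interval -1.07 to -0.75, adjusted p = 1.92e-06). *Pkm* was higher with GR24 than with resveratrol by 0.74 (95% interval 0.57 to 0.92, adjusted p = 2.38e-05). For *Pc*, GR24 minus pinosylvin was 0.19 (adjusted p = 0.126), with adjusted p = 0.00487 under the replicate block. All 12 myotube markers were lower with GR24 than with pinosylvin, beside 27.1% of all named genes. Against resveratrol 9 of the 12 were lower with GR24, beside 25.1% of all named genes. The part of these markers in the differences was not tested.

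The rest of the pathway was read from a list of 54 further genes, of which 46 were on the array and 36 were tested. *Ldhc* and *Fbp1* passed the filter on dim probes only through a group where they were high, so they are left out of the counts and medians of the other 34. With GR24 10 of the 34 rose and 11 fell (36.1% and 26.7% of all named genes), with pinosylvin 3 rose and 3 fell (8.59% and 9.77%), and with resveratrol 1 rose and 2 fell (8.63% and 10.3%). Pinosylvin was higher than resveratrol for 1 and lower for 2 (8.13% and 8.26%). GR24 was higher than pinosylvin for 8 and lower for 12 (34.7% and 27.1%), and higher than resveratrol for 9 and lower for 11 (31.6% and 25.1%). The medians of the 34 genes were 0.022 with GR24, 0.067 with pinosylvin and 0.0043 with resveratrol. Among 17 further TCA cycle and shuttle genes 7 rose and 7 fell with GR24. Among the 13 of glycolysis and gluconeogenesis 2 rose and 4 fell, and of 4 pyruvate dehydrogenase genes 1 rose.

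*Tigar*, a phosphatase that lowers the activator of phosphofructokinase, had levels of 1.47, 1.52 and 1.23 in control and 2.58, 2.73 and 2.49 with GR24. It rose by 1.19 (95% interval 0.95 to 1.44, adjusted p = 5.44e-06) with GR24 and fell with pinosylvin (change -0.37, adjusted p = 0.0444). The pinosylvin call lay near the threshold and was not checked in the alternative settings. *Pdpr*, a regulatory subunit of the pyruvate dehydrogenase phosphatase, gave a dim signal. It rose from -3.77, -3.52 and -4.17 to -2.51, -2.48 and -2.74 with GR24, a change of 1.24 (95% interval 0.86 to 1.63, adjusted p = 0.000116). Whether this change moved with the background correction was not checked. The pyruvate transporter *Slc16a7* fell with GR24, from -1.02, -0.81 and -0.63 to -2.26, -2.28 and -2.23, a change of -1.43 (95% interval -1.63 to -1.23, adjusted p = 3.28e-07). Mitochondrial NADP-dependent isocitrate dehydrogenase, *Idh2*, fell from 5.93, 6.12 and 5.86 to 4.91, 4.94 and 4.81, a change of -1.08 (95% interval -1.28 to -0.89, adjusted p = 2.04e-06). In each of these 4 genes the control and GR24 arrays did not overlap.

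*Pck2*, the mitochondrial enzyme that turns oxaloacetate into phosphoenolpyruvate, had levels of 1.55, 1.73 and 1.49 in control, 1.76, 1.77 and 1.63 with GR24, 2.82, 2.69 and 2.51 with pinosylvin and 2.46, 2.50 and 2.28 with resveratrol. All stilbene arrays lay above all control and GR24 arrays. *Pck2* rose by 1.08 (95% interval 0.86 to 1.31, adjusted p = 4.58e-05) with pinosylvin and 0.82 (95% interval 0.60 to 1.04, adjusted p = 0.000366) with resveratrol, and had a change of 0.13 (adjusted p = 0.311) with GR24. The dicarboxylate carrier *Slc25a10* rose with GR24 (0.49, adjusted p = 0.000951) and fell with pinosylvin (-0.70, adjusted p = 0.000497), and GR24 minus pinosylvin was 1.19 (95% interval 0.98 to 1.39, adjusted p = 1.74e-06). The testis-type lactate dehydrogenase *Ldhc* was well above background on 0 control and 3 GR24 arrays. Against the background limit of the control arrays it was at least 2.57-fold higher with GR24. Fructose bisphosphatase *Fbp1*, an enzyme of gluconeogenesis, was well above background on 3 control and 0 GR24 arrays, which makes it at least 2.36-fold lower with GR24. Both genes entered the test only through the group with the higher signal, so no p-value is given for them.

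The promoters of the paired enzyme forms were examined because the forms of 1 enzyme moved apart with GR24. RefSeq promoter windows of 250 bases upstream of the gene start, build GRCr8, were found for 38 of the 43 genes, and not for *Pgk1*, *Pdp1*, *Pc*, *Gpd1* and *Idh3a*. Each window was searched on both strands for ACGTG, the core of the hypoxia response element, GCGTG, the other form of that core, which shares CGTG with it, CAGCTG, an E-box of the kind bound by myogenic factors, and TGACNNNGC, the core of the antioxidant response element. ACGTG stood in 13 of 38 windows (34.2%), against 16.6% of all 33465 windows of the same length. GCGTG stood in 17 (44.7% against 25.9%), CAGCTG in 4 (10.5% against 12%) and TGACNNNGC in 5 (13.2% against 10.1%). The 4 genes with CAGCTG were *Gpi*, *Pgam2*, *Dld* and *Sucla2*. Such a match describes the letters in a window and shows no binding. The windows of all genes were not matched to those of the members for base composition. The shares therefore do not show whether a motif is more frequent than composition alone would give.

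The windows of the 3 muscle forms and of a general counterpart of each follow, written 5′ to 3′ on the strand of the gene, with matches to any of the 4 motifs in capitals. *Pgam2* held 2 matches to CAGCTG, *Pfkm* 1 to ACGTG, *Pfkp* and *Eno1* 1 each to GCGTG, *Pgam1* 1 to ACGTG and 1 to GCGTG, and *Eno3* had no match.
*Pfkm*, chr7:131113849-131114098, plus strand: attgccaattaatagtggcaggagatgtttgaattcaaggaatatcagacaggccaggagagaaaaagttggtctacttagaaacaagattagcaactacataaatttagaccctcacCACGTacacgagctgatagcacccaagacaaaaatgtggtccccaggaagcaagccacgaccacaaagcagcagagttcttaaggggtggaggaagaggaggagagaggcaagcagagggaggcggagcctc
*Pfkp*, chr17:68639563-68639812, plus strand: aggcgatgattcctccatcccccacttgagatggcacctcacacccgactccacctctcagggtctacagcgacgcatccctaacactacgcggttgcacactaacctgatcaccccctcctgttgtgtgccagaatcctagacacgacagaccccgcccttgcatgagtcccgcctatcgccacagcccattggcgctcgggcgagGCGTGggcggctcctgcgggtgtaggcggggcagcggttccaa
*Eno3*, chr10:55868936-55869185, plus strand: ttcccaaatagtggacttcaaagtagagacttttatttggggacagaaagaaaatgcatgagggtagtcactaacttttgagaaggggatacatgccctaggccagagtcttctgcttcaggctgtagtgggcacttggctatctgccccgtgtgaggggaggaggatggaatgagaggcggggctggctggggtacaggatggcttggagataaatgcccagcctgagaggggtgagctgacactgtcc
*Eno1*, chr5:166002617-166002866, plus strand: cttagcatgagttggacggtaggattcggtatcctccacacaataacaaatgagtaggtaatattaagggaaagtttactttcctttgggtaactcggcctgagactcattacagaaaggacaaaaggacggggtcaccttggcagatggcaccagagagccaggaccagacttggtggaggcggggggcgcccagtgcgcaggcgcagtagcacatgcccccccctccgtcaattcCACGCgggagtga
*Pgam2*, chr14:84897875-84898124, minus strand: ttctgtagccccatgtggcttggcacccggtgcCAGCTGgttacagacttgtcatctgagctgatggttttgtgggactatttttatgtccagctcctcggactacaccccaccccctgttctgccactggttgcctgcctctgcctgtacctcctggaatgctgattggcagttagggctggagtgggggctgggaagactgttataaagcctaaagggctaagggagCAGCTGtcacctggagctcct
*Pgam1*, chr1:250672902-250673151, plus strand: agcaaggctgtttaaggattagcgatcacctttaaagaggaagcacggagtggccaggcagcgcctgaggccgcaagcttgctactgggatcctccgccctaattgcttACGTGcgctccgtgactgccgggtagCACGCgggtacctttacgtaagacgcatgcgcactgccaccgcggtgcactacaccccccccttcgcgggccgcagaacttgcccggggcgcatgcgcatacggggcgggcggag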

How the data were processed

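RNA of 12 cultures of L6 myotubes, 3 in each of 4 groups, was measured on Agilent 1-colour arrays. Per the file headers, the authors extracted spot intensity values with Agilent Feature Extraction 12.0.0.7, and the processed signal is a background-corrected intensity. The files also hold other columns per the file headers, namely marks for spots that are well above background, saturated or outliers. The deposited series table, made with limma per the labels, holds log2 values for 25848 probes. They correlated at 0.999 or more with log2 of the median signal of the same probes, and their medians were 9.22, 9.21 and 9.22 for the control arrays, 9.24, 9.24 and 9.24 for GR24, 9.21, 9.21 and 9.21 for pinosylvin and 9.22, 9.22 and 9.22 for resveratrol. The sources used here do not give its background correction or between-array normalization.

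Spots marked as outliers were left out, spots of a probe averaged, and log2 of the processed signal taken relative to the array's 75th percentile over probes. The test took 24279 of 45598 probes, those that in some group had all 3 arrays well above background. limma 3.58.1 in R 4.3.3 fitted a mean per group to all 12 arrays, and Benjamini-Hochberg adjustment ran over all tested probes, with a threshold of 0.05 and 95% intervals. The scripts were tested on simulated data. Figures used Python 3.11.15 and matplotlib 3.10.9. Symbols came from the RefSeq gene table of build GRCr8, and each of 10741 named genes was represented by its tested probe with the highest mean. Levels on every array are given for the muscle isoforms and their counterparts, for members past the threshold among the 10 largest changes each way with GR24, and for the 5 largest each way with each stilbene and between them. Of the further lists, genes past the threshold by at least 1 on the log2 scale are named, at most 8 a list. The members and lists were chosen with earlier results of these data known. A fold against a group in which no array was well above background used the background limit of those arrays.

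The replicate numbers mark independent experiments per the labels. The deviations of same-numbered arrays from their group means correlated at 0.191 to 0.744 in all 18 pairs. Replicate 3 of every group sat on the second slide, and a shift between slides would also give such correlations. Pairing by number and slide thus cannot be told apart by these values. A fit with the replicate number as a block was run beside the one without, as an alternative. The other alternatives tried were normexp background correction (offset 50, on the median signal, since the files hold no mean signal), quantile normalization, the deposited series table, other filters on dim probes, another base for the percentile, only the arrays compared, the slide as a block, each slide alone, another variance model, the mean over a gene's probes, outlier spots kept, and leaving out each array in turn.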

Additional observations from a re-analysis of the deposited data

Results flagged for a closer look

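For 4 of the 43 genes, changes past the threshold went in opposite directions with GR24 and with a stilbene, and the direct difference between the compounds passed it too. The genes were picked by these calls, so the size and sign of each difference follow in part from the choice and are given as description. *Pfkp* rose by 0.85 with GR24 and had a change of -0.40 with pinosylvin, a difference of 1.25. *Pfkfb3* rose by 0.35 with GR24 and had a change of -0.21 with pinosylvin, a difference of 0.56. *Pkm* rose by 0.39 with GR24 and had a change of -0.35 with resveratrol, a difference of 0.74. *Ldhb* had a change of -0.59 with GR24, 0.38 with pinosylvin and 0.42 with resveratrol. Its difference was -0.97 for GR24 minus pinosylvin and -1.01 for GR24 minus resveratrol. Without the filter on dim probes the stilbene calls of *Pfkp*, *Pfkfb3* and *Pkm* and the pinosylvin call of *Ldhb* were lost, which left *Ldhb* against resveratrol. The pinosylvin call of *Pfkfb3* was also lost when any array other than control array 2 was left out, and its GR24 call when both of its probes were averaged. The comparisons share the control arrays, and the direct differences do not use them other than for the spread. Among all named genes 36.1% were higher and 26.7% lower with GR24, 8.59% and 9.77% with pinosylvin, and 8.63% and 10.3% with resveratrol. The share of all named genes with calls in opposite directions is not given, so 4 of 43 is not shown to be unusual.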

How the results depend on the processing

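Of 72 results for named genes and comparisons, 48 kept their side of the threshold in every alternative that gave a test. The direction turned in 0 such alternatives where the gene was past the threshold before or after. Genes not past it could take either sign, as *Eno1* did with GR24 (-0.074 to 0.11 over these alternatives). Those that crossed the threshold are given with their genes above. The number of genes past the threshold with GR24 was 28 to 34 (28 to 33 with an array left out), against 20 to 34 for GR24 minus pinosylvin (20 to 27 with an array left out) and 21 to 31 for GR24 minus resveratrol (21 to 26). For pinosylvin the 10 genes became 4 without the filter on dim probes and 5 with the arrays compared alone, where fewer arrays set the spread, and 16 with the deposited series table and the replicate block. With an array left out they were 5 to 9. For resveratrol the 8 genes became 14 with the deposited series table and the replicate block, and 7 to 9 with an array left out. For pinosylvin minus resveratrol the 7 genes became 11 with the slide as a block, and 5 to 7 with an array left out. Other than by these settings' own construction, the cause of these shifts was not tested.

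The median change of the 43 genes with GR24, 0.25, was 0.35 with quantile normalization, 0.28 with normexp and quantile normalization, 0.34 with the percentile over all spots, 0.34 with the deposited series table, with or without the replicate block, 0.19 on the first slide alone and 0.21 with the mean over a gene's probes. With an array left out it was 0.20 to 0.25. For pinosylvin it was -0.023 to 0.055 with an array left out. For resveratrol it was 0.0041 with quantile normalization, and -0.036 to -0.015 with an array left out. The percentile over all spots and the series table with the block were chosen after seeing the data.

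The muscle minus general differences kept their direction in all alternatives for *Eno3* with each compound, *Pfkm* with GR24 and pinosylvin, and *Pgam2* with GR24 and resveratrol. *Pfkm* with pinosylvin, 0.15, was 0.065 to 0.25 with an array left out. *Pgam2* minus *Pgam1* with pinosylvin was -0.040 on the second slide alone and -0.024 to 0.033 with an array left out, and *Pfkm* with resveratrol was -0.13 to 0.063 with an array left out. The cause was not tested.

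With the replicate block the counts past the threshold were 33 for GR24, 15 for pinosylvin, 11 for resveratrol, 10 for pinosylvin minus resveratrol, 33 for GR24 minus pinosylvin and 30 for GR24 minus resveratrol. For GR24 minus pinosylvin 23 were higher and 10 lower, beside 39.7% and 31.5% of all named genes. For GR24 minus resveratrol 21 were higher and 9 lower, beside 37.2% and 29.5%. The counts of GR24 against each stilbene include *Slc16a3*, which is not taken as a change. All calls made without the block were also made with it, and it changed no other call than those printed above with its adjusted p and those of *Slc16a3*. Genes past the threshold with a compound, or between the stilbenes, had the same sign on both slides (30 of 30, 10 of 10, 8 of 8 and 7 of 7). As they were picked by calls on these same arrays, the shared sign largely follows from the choice and is no support for the calls.

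With 3 arrays a group from 1 batch of cells, small changes can be missed, and a gene not past the threshold is not shown to be unchanged. The changes at the dim probes of *Aldoc*, *Gpd1* and *Pfkfb1* moved with the background correction. Probes of a gene can differ in direction, as those of *Pfkfb2* did, and the cause was not tested.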

Other observations

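Targets of hypoxia-inducible factors outside glycolysis were read from a list of 12 genes, of which 11 were tested. With GR24 5 rose and 3 fell, where 36.1% and 26.7% of all named genes did. With pinosylvin 4 rose and 1 fell (8.59% and 9.77% of all), and with resveratrol 4 rose and 0 fell (8.63% and 10.3%). The 3 that fell with GR24 were *Car9* (-0.80, adjusted p = 2.01e-05), *P4ha2* (-0.48, adjusted p = 0.00129) and *Ndrg1* (-0.44, adjusted p = 8.43e-05), and *Ndrg1* also fell with pinosylvin (-0.50, adjusted p = 0.000226). The glucose transporter *Slc2a1*, which brings glucose into the cell, had levels of 0.66, 0.54 and 0.41 in control, 2.52, 2.64 and 2.25 with GR24, 1.13, 1.07 and 0.82 with pinosylvin and 0.99, 1.12 and 0.80 with resveratrol. Every treated array lay above every control array, with those of GR24 the highest. *Slc2a1* rose by 1.93 (95% interval 1.65 to 2.22, adjusted p = 5.3e-07) with GR24, 0.47 (adjusted p = 0.0327) with pinosylvin and 0.43 (adjusted p = 0.0455) with resveratrol. Its stilbene calls lay near the threshold and were not checked in the alternative settings. *Adm*, which encodes the peptide hormone adrenomedullin, rose by 1.06 (adjusted p = 3.93e-07) with GR24, 0.87 (adjusted p = 1.44e-05) with pinosylvin and 1.56 (adjusted p = 7.69e-07) with resveratrol. *Ankrd37* rose by 1.49 (adjusted p = 8.65e-08) with GR24 and 0.67 (adjusted p = 0.000246) with pinosylvin, and had a change of -0.021 (adjusted p = 0.919) with resveratrol. *Vegfa* had levels of 1.23, 1.42 and 1.40 in control and 1.45, 1.36 and 1.49 with GR24. Its levels were 2.14, 2.16 and 2.20 with pinosylvin and 1.96, 1.91 and 2.00 with resveratrol, above all control and GR24 arrays.

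As a check of the treatments, 5 targets of the antioxidant regulator Nrf2 were read. All 5 rose with GR24 and with resveratrol, and 3 of 5 with pinosylvin, where 36.1%, 8.63% and 8.59% of all named genes were higher. The quinone reductase *Nqo1* had levels of 3.38, 3.28 and 3.38 in control, 6.33, 6.44 and 6.28 with GR24, 3.80, 3.67 and 3.70 with pinosylvin and 5.37, 5.50 and 5.40 with resveratrol. It rose by 3.00 (95% interval 2.85 to 3.15, adjusted p = 3.55e-10) with GR24 and 2.08 (95% interval 1.92 to 2.23, adjusted p = 1.15e-07) with resveratrol. Heme oxygenase *Hmox1* rose by 4.08 (adjusted p = 2.55e-09), *Srxn1* by 2.32 (adjusted p = 1.21e-07), *Txnrd1* by 1.60 (adjusted p = 2.19e-07) and *Gclc* by 1.14 (adjusted p = 1.26e-06) with GR24. The medians of the 5 genes were 2.32 with GR24, 0.38 with pinosylvin and 1.54 with resveratrol.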
